A study of Mus musculus with 6 samples.

Results

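The potassium channel genes of the substantia nigra (SN) are described here in MitoPark mice and littermate controls. Members are the genes whose symbol is Kcn followed by a letter and a digit, with a mean level above 1 CPM (the share of a library's counts, scaled to a common library size) over the 6 mice. Symbols with an antisense ending (-as or ot) and some genes not reported here were left out. Of the 80 symbols that remained, 64 passed the threshold, out of 24054 genes in the table. The rule reads the mean level over all 6 mice and not the difference between the groups. Kcnk5 was just inside the threshold at 1.03 CPM, followed by Kcnj13 at 1.16 CPM and Kcns1 at 1.62 CPM. Kcne2, Kcng3 and Kcnv2 were just outside, at 0.607, 0.597 and 0.404 CPM.

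Polyadenylated RNA was sequenced from 3 MitoParks and 3 littermate controls on a C57BL/6 background, untreated and 16 to 17 weeks old. The methods give MitoParks as Dat +/Cre and TFAM LoxP/LoxP, with Cre at the dopamine transporter locus and both Tfam copies floxed, so Tfam is lost only in cells that express the transporter. Controls are TFAM +/LoxP and Dat +/+, so they too carry a floxed copy of Tfam. The labels give the tissue as brain, and the methods give the dissected SN, which holds many cells that keep Tfam. Nothing says whether animals were pooled, so p-values measure the spread between these 6 libraries.

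Potassium channels let potassium ions leave the cell, and so set the resting potential, end the action potential and pace firing. Voltage-gated channels are built from 4 subunits, which may differ, and open on depolarization. Inward rectifiers and two-pore channels hold the resting potential, and small-conductance channels open with calcium. Midbrain dopaminergic (DAergic) neurons are known for pacemaker firing shaped by the A-type channel gene Kcnd3, the small-conductance gene Kcnn3 and the ATP-sensitive channel gene Kcnj11.

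Total expected counts per library ranged from 8140777 to 10528602, and 3 counts equal between 0.285 and 0.366 CPM. For Tfam, the targeted gene, littermate controls 1 to 3 had 40.3, 44.4 and 45.5 CPM, while MitoParks 1 to 3 had 32.7, 33.1 and 33.2 CPM. Every MitoPark was below every control. Of 12 DAergic marker genes, all had a log2 fold change below 0, and 2 passed edgeR's quasi-likelihood test at an unadjusted p below 0.05. The 2 were Slc6a3 and Foxa1. Slc6a3 is the dopamine transporter gene, whose locus carries Cre in MitoParks and not in controls, so the groups differ there by design. For Foxa1 the groups overlapped. The summed level of the 12 markers was 568, 670 and 1789 CPM in controls and 363, 701 and 676 CPM in MitoParks. Control 3 stood apart by this measure. MitoPark 3 stood apart in serotonergic genes, since Tph2, which encodes the neuronal tryptophan hydroxylase, was at 23.4 CPM there and between 0.244 and 0.782 CPM in the other 5 mice. Fewer cells of a type and less RNA per cell cannot be told apart in such tissue.

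In littermate controls the levels of the members covered a 170-fold range when divided by the length of the longest annotated transcript. The lower end of this range depends on the threshold of 1 CPM for members. Kcna1 and Kcna2, which encode low-threshold Kv1 channels of axons, led the order at 46.2 ± 18.6 and 37.0 ± 8.09 CPM per kilobase (SD, n = 3). They were followed by Kcnc1, a Kv3 channel gene of fast-firing neurons, at 31.2 ± 3.95 CPM per kilobase (SD, n = 3), and by the two-pore channel gene Kcnk1 at 30.0 ± 4.74 CPM per kilobase (SD, n = 3). These 4 neighbours in the order did not differ beyond their spread. The order depends on the division by length, since before it Kcna2 had a mean of 428 CPM in controls and Kcna1 186 CPM. The median member was at 4 CPM per kilobase, 18 members were above 10 and 15 were below 1. Kcnd3, at 18.0 ± 2.68 CPM per kilobase (SD, n = 3), was well above Kcnn3, at 4.06 ± 1.06 CPM per kilobase (SD, n = 3).

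**Figure D1:**
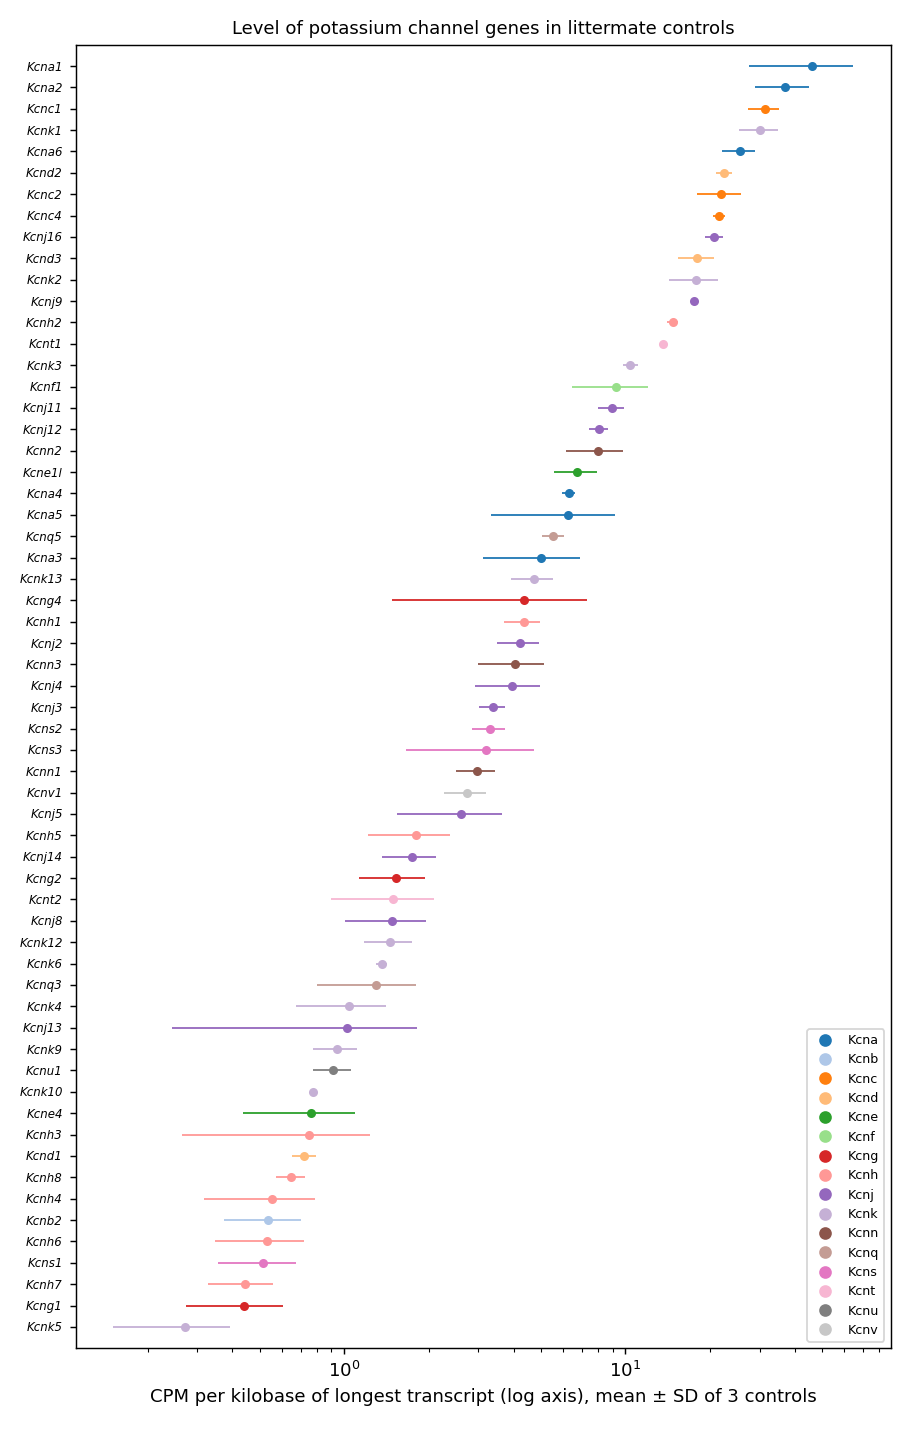
Level of 60 of the 64 potassium channel genes in littermate controls, in CPM per kilobase on a log axis, with points at the mean and bars at the SD of 3 mice, coloured by class. Kcna1 is at the top at 46.2 CPM per kilobase and Kcnk5 at the bottom at 0.271.

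Between the groups, 3 members fell in MitoParks and none rose at an unadjusted p below 0.05. The 3 were Kcng2, Kcnv1 and Kcna4, all genes of voltage-gated channel subunits, as most members are. That is 4.69% of the 64 members, where 1.11% of all 14568 genes tested passed in either direction, 0.446% as lower and 0.659% as higher. Kcng2 alone also passed the study's 1.5-fold cutoff, or 1.56% of members against 0.577% of all genes in either direction and 0.199% as lower. After Benjamini-Hochberg adjustment over all genes, edgeR's quasi-likelihood test called 0 members and 0 of all 14568 genes, so the lack of calls is not particular to the members. Each member had an adjusted p of 0.999, which was also the smallest over all genes. DESeq2 and limma-voom also called 0 members and 0 genes after adjustment. They had 2 and 3 members at an unadjusted p below 0.05, and 96 and 145 of all genes.

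The estimated log2 fold changes of the members were small. They ran from -0.87 to 0.44, and 63 of the 64 were within the 1.5-fold cutoff, as were 97.2% of all genes tested. The 95% intervals of the members reached a median of 0.52 to either side, near the cutoff at 0.585 on the log2 scale, so they were wide beside these estimates. The median log2 fold change of the members was -0.06, beside a median of -0.0047 over all genes tested. Of the members 49 were lower and 15 higher in MitoParks, so 76.6% had a log2 fold change below 0, against 51.4% of all genes. Scaled by total counts alone, 44 were lower and 20 higher, and with limma-voom 42 were lower and 22 higher. Leaving out 1 mouse at a time left between 36 and 49 lower, with the fewest without MitoPark 3, where 27 of the 63 members tested were higher and the median was -0.02. With control 3 left out as well, 33 were lower and 30 higher. Neuronal markers did not all point one way. In a list of 8 genes found in neurons at large, chosen after the values were seen, all 8 had a log2 fold change below 0, with a median of -0.10 and none at an unadjusted p below 0.05, and their summed level was 5807, 6409 and 7022 CPM in controls and 5608, 6566 and 5344 CPM in MitoParks, so that the groups overlapped. All 4 GABA neuron markers had a log2 fold change above 0, with a median of 0.19 and none at an unadjusted p below 0.05. The part of neuronal content in the members' values was not tested.

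**Figure D2:**
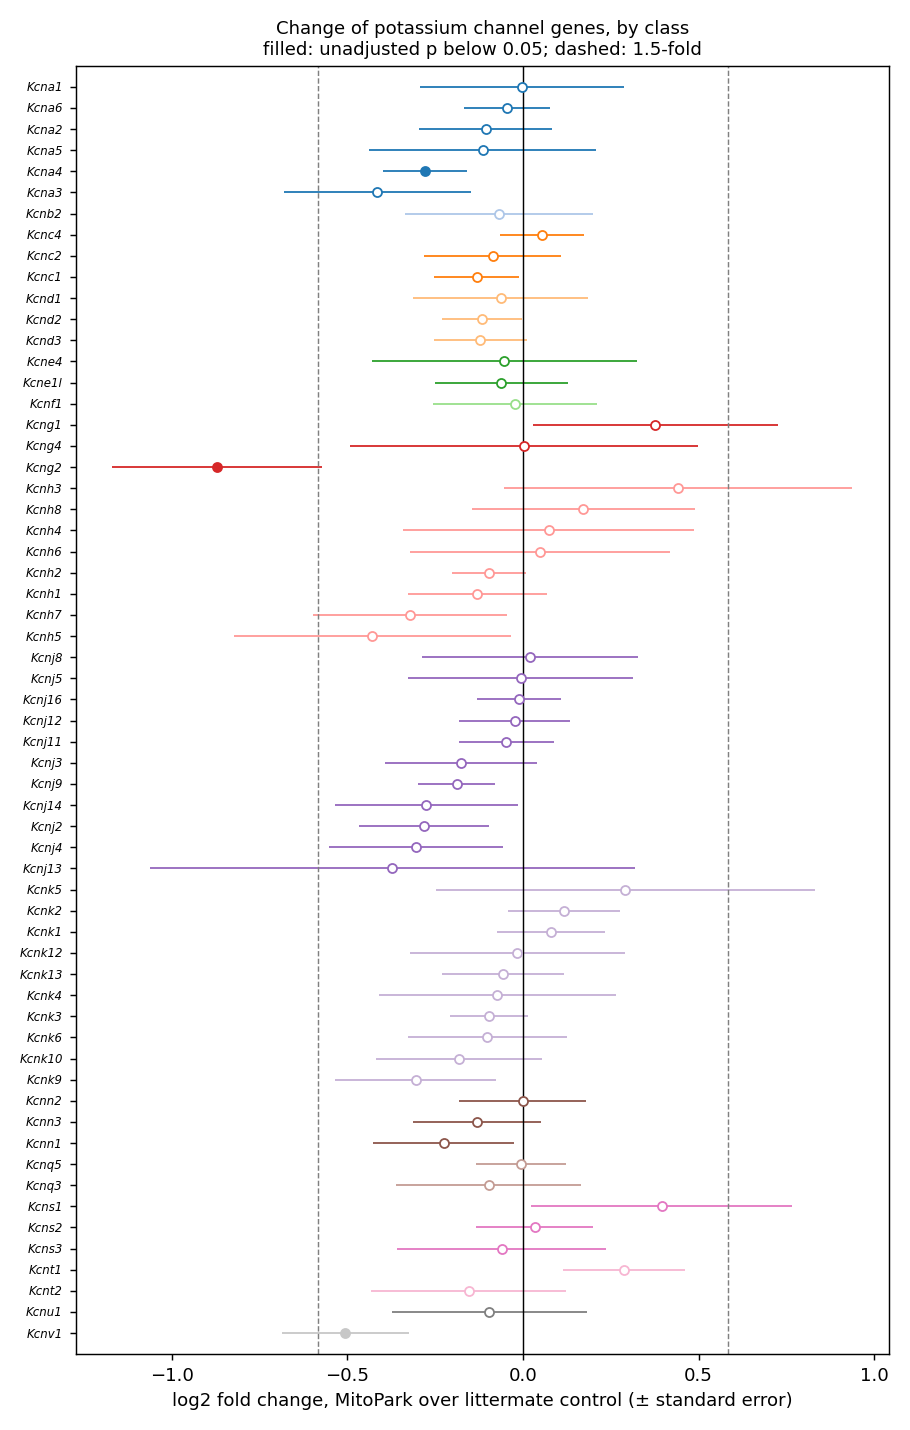
Log2 fold change of MitoParks over littermate controls for 60 of the 64 potassium channel genes, grouped by class, with bars at the standard error. Filled points mark the 3 genes with an unadjusted p below 0.05, and Kcng2 at -0.87 is the point beyond the dashed 1.5-fold lines.

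Kcng2 encodes a subunit that forms no channel alone and modifies the Kv2 channels it joins. Controls 1 to 3 had 4.68, 5.22 and 3.03 CPM of it, and MitoParks 1 to 3 had 2.80, 2.22 and 2.04 CPM. Each MitoPark was below each control, and control 3 lay close to MitoPark 1. Between 18 and 55 counts per mouse lie behind these values. This gave a log2 fold change of -0.87 (standard error 0.30, unadjusted p = 0.0162, adjusted p = 0.999 in edgeR's quasi-likelihood test). The unadjusted p rose to 0.0511 without control 1, to 0.0697 without control 2 and to 0.0509 without MitoPark 2.

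Kcnv1, whose product is another subunit that is silent alone and acts with Kv2 channels, was at 11.4, 14.2 and 10.4 CPM in controls and at 7.80, 9.10 and 8.39 CPM in MitoParks. The groups did not overlap, and control 2 was the highest mouse. This gave a log2 fold change of -0.51 (standard error 0.18, unadjusted p = 0.0198, adjusted p = 0.999 in edgeR's quasi-likelihood test). Without control 2 the log2 fold change was -0.36 and the unadjusted p 0.1, and without MitoPark 1 the unadjusted p was 0.0623.

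The third gene, Kcna4, encodes the rapidly inactivating Kv1 subunit. Its level was 31.7, 30.0 and 28.6 CPM in controls and 23.9, 27.4 and 23.1 CPM in MitoParks, so the groups did not overlap but the gap was narrow. The log2 fold change was -0.28 (standard error 0.12, unadjusted p = 0.0451, adjusted p = 0.999, edgeR's quasi-likelihood test). When mice were left out in turn, Kcna4 kept an unadjusted p below 0.05 only without MitoPark 2 (1 of 6 fits).

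In 5 members, or 7.81%, each MitoPark was below each littermate control, and in none was each MitoPark above, where the groups did not overlap for 4.71% of all genes tested and for 2.28% in the lower direction. Besides the 3 genes above these were Kcnj9 and Kcnk3. Kcnj9, which encodes a G protein-gated inward rectifier, was at 68.3, 68.8 and 66.5 CPM in controls and at 54.7, 66.1 and 57.6 CPM in MitoParks, where MitoPark 2 all but reached control 3. Its log2 fold change was -0.19 (95% interval -0.44 to 0.06, unadjusted p = 0.12). Kcnk3, which encodes a two-pore channel closed by acid, was at 42.4, 38.6 and 38.1 CPM in controls and at 38.0, 37.5 and 35.8 CPM in MitoParks. That is a log2 fold change of -0.10 (95% interval -0.35 to 0.15). An exact two-sided permutation test gave p = 0.1 for each of the 5 genes, the smallest that 3 mice against 3 can give.

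**Figure D3:**
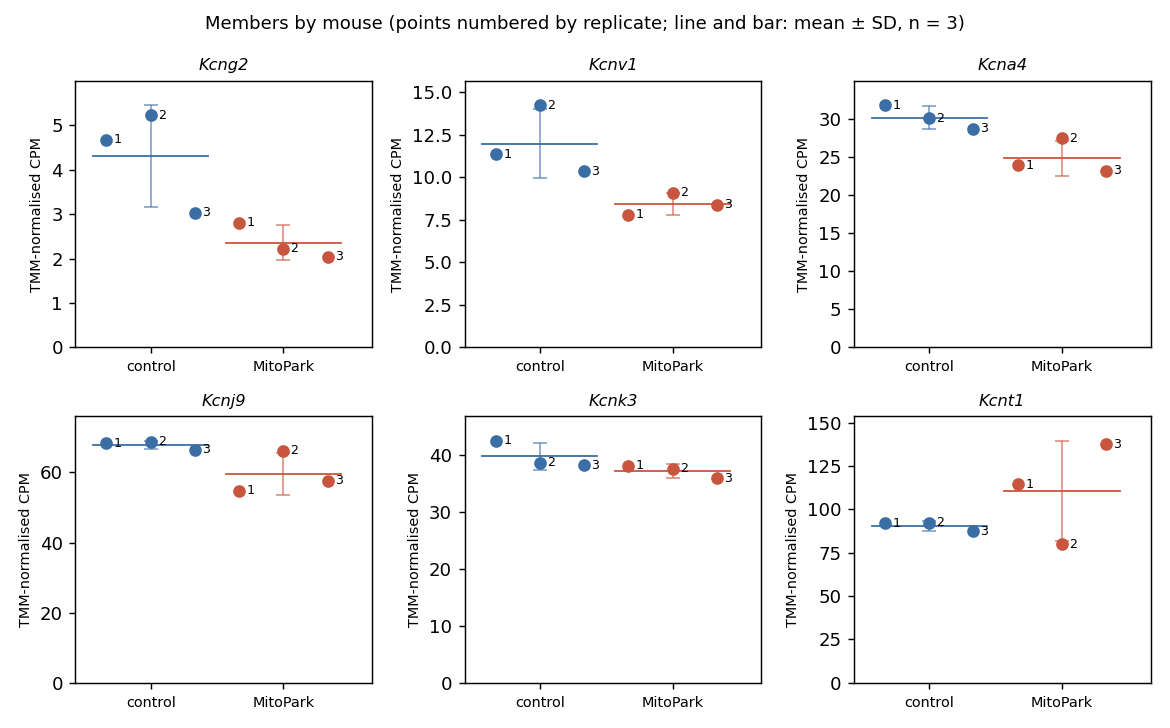
TMM-normalised CPM of Kcng2, Kcnv1, Kcna4, Kcnj9, Kcnk3 and Kcnt1 in each mouse, with points numbered by replicate and lines and bars at the mean and SD of 3 mice. In the first 5 genes the MitoParks lie below all controls, and for Kcnt1 MitoPark 2, at 79.9 CPM, lies below the controls while the other MitoParks lie above.

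RefSeq promoter sequence (GRCm38.p6) was on hand for 43 of the 64 members. The 250 bases before the start that RefSeq gives for Kcna4 and Kcnj9 are shown because these are the non-overlapping members with such an entry, and those of Kcna2 and Kcng4 because both genes followed an order over the 6 mice that is described further on. The bases just after the start were found in a GENCODE M21 transcript of Kcna2 and of Kcng4, but in none of Kcna4 or Kcnj9, whose starts rest on RefSeq alone. CG dinucleotides are in capitals. The windows are chr2:107290339-107290588 on the plus strand for Kcna4, chr1:172329323-172329572 on the minus strand for Kcnj9, chr3:107101317-107101566 on the plus strand for Kcna2 and chr8:119635681-119635930 on the minus strand for Kcng4.
Kcna4: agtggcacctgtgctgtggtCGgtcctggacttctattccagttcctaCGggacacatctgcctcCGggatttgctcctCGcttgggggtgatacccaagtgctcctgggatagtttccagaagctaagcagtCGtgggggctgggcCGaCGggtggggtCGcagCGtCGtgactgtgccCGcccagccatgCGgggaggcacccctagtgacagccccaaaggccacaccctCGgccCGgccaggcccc
Kcnj9: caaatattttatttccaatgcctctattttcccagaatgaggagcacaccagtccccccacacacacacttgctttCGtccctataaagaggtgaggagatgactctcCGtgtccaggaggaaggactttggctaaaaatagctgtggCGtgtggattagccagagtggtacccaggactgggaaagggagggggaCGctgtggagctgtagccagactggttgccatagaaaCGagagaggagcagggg
Kcna2: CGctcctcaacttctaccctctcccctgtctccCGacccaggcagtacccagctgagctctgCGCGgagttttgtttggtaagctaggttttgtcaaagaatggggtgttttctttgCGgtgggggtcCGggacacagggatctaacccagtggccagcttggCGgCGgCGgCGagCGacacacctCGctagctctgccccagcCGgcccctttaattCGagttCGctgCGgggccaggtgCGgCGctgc
Kcng4: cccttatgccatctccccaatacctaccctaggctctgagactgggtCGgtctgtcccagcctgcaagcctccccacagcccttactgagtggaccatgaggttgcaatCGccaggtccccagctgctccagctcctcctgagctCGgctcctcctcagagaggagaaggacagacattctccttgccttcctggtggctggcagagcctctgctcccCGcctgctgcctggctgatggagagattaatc
The Kcna4 window holds 14 CG dinucleotides and Kcna2 holds 18, while Kcnj9 holds 5 and Kcng4 holds 4. The median was 10 over the 43 members and 6 over 27025 genes in the promoter table. Members' windows had a median G and C content of 61.6%, against 52% over all windows. The genes in the promoter table were not filtered by level, while the members were. On either strand, GGGCGG, the core of a GC box, was found in 53.5% of the members' windows, Kcna4 included, and in 32.9% of all windows. TATAAA was found in 4.65% of the members' windows, Kcnj9 included, and in 13% of all windows. A match of these letters is no evidence of a bound factor.

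Among the 6 Kv1 genes (class a), all had a log2 fold change below 0, with a median of -0.11, though Kcna1 was above 0 when scaled by total counts, and Kcna4 fell. Kcna3, the member of this class with the largest difference, was at 13.7, 7.79 and 7.14 CPM in controls and 7.44, 7.68 and 6.24 CPM in MitoParks, so that control 1 alone stood above the rest (log2 fold change -0.42, unadjusted p = 0.152). Its log2 fold change was -0.06 without control 1 and -0.59 without control 3, where it passed both cutoffs (unadjusted p = 0.0487). Kcna2 was at 349, 404 and 532 CPM in controls and 328, 488 and 378 CPM in MitoParks, with groups that overlapped (log2 fold change -0.11, 95% interval -0.53 to 0.32).

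Kcnb2, which encodes a delayed rectifier, was at 10.7, 7.12 and 6.06 CPM in controls and 8.65, 8.49 and 5.56 CPM in MitoParks, and did not pass the test. Of the 8 members of the silent classes that join Kv2 channels (f, g, s and v), 4 were lower and 4 higher, and Kcng2 and Kcnv1 fell. Kcng1, a close relative of Kcng2, was at 1.56, 2.56 and 1.27 CPM in controls and 2.68, 2.22 and 2.15 CPM in MitoParks (log2 fold change 0.38, 95% interval -0.41 to 1.16). Kcns3 was at 6.35, 7.22 and 14.6 CPM in controls and 9.75, 8.80 and 8.50 CPM in MitoParks, so that control 3 stood above the other mice.

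The 4 Kv3 genes (class c) and the 3 Kv4 genes (class d) had median log2 fold changes of -0.06 and -0.12, with none at an unadjusted p below 0.05. Kcnc1 was at 254, 208 and 266 CPM in controls and 219, 236 and 209 CPM in MitoParks (log2 fold change -0.13, 95% interval -0.40 to 0.14). Kcnc2, another Kv3 gene, was at 125, 88.2 and 118 CPM and then at 100, 133 and 79.1 CPM, with both extremes among the MitoParks. Kcnd3, whose Kv4 channel slows the pacemaker of DAergic neurons, was at 139, 107 and 142 CPM in controls and 118, 131 and 108 CPM in MitoParks, with overlap (log2 fold change -0.12, 95% interval -0.42 to 0.18). Its relative Kcnd2 was at 125, 110 and 113 CPM and then at 105, 119 and 96.0 CPM (log2 fold change -0.12, 95% interval -0.37 to 0.14).

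Of the 8 genes in class h, the ether-a-go-go family, 4 were higher and 4 lower, and none passed the test. Kcnh2, which encodes the erg channel and was the most abundant of them per kilobase, was at 64.9, 62.2 and 59.4 CPM in controls and 60.3, 59.9 and 54.2 CPM in MitoParks (log2 fold change -0.10, 95% interval -0.33 to 0.14). The largest difference in this class was that of Kcnh3, at 2.78, 4.56 and 0.977 CPM in controls and 5.36, 2.43 and 3.63 CPM in MitoParks (log2 fold change 0.44, 95% interval -0.67 to 1.55). Its spread within each group exceeded the difference between the groups.

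Among the 11 inward rectifier genes (class j), 10 had a log2 fold change below 0, or 8 when scaled by total counts, where Kcnj5 and Kcnj16 were above 0. None passed the test, and the median was -0.18. Kcnj2, a strong rectifier gene, was at 18.5, 25.3 and 25.1 CPM in controls and 14.5, 20.7 and 21.4 CPM in MitoParks (log2 fold change -0.28, 95% interval -0.70 to 0.14). Another strong rectifier gene, Kcnj4, was at 9.69, 9.78 and 5.96 CPM and then at 8.04, 5.56 and 7.03 CPM (log2 fold change -0.30, unadjusted p = 0.25). The pore subunit gene of the neuronal ATP-sensitive channel, Kcnj11, was at 25.2, 28.0 and 31.1 CPM in controls and 27.1, 30.3 and 24.1 CPM in MitoParks (log2 fold change -0.05, 95% interval -0.35 to 0.26). Kcnj3 and Kcnj5, which encode other subunits of G protein-gated channels, had overlapping groups. Kcnj3 was at 19.7, 16.8 and 16.3 CPM in controls and 16.5, 19.7 and 10.4 CPM in MitoParks, and Kcnj5 was at 16.9, 12.3 and 7.14 CPM and then at 16.5, 11.02 and 8.73 CPM. Kcnj16, an inward rectifier of astrocytes, was at 70.9, 76.9 and 82.2 CPM and then at 65.8, 82.3 and 80.2 CPM, and 6 astrocyte markers summed to between 1394 and 1713 CPM in controls and between 1550 and 1974 CPM in MitoParks. Kcnj13 is a channel of the choroid plexus and was highest in control 2, at 2.28 CPM, the mouse in which the choroid plexus marker Ttr was at 131 CPM against 23 CPM or less elsewhere.

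Of the 10 two-pore genes (class k), 7 were lower and 3 higher, and the median log2 fold change was -0.07. Beside Kcnk3, its relative Kcnk9 was at 13.9, 10.3 and 10.5 CPM in controls and 10.2, 11.1 and 6.58 CPM in MitoParks (log2 fold change -0.31, 95% interval -0.82 to 0.21). The lowest value was that of MitoPark 3. Kcnk13, a two-pore gene of microglia, was at 14.1, 12.3 and 17.1 CPM and then at 13.5, 16.0 and 12.2 CPM, with overlapping groups. Kcnk2, which encodes a stretch-sensitive channel, was at 75.6, 65.1 and 50.5 CPM in controls and 78.6, 67.5 and 61.1 CPM in MitoParks. Kcnk1 was at 54.9, 72.9 and 73.6 CPM and then at 62.2, 83.7 and 66.9 CPM. Neither gene separated the groups.

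The 3 small-conductance calcium-activated genes (class n) did not pass the test. Kcnn3 was at 43.4, 26.1 and 31.7 CPM in controls and 31.7, 32.7 and 27.9 CPM in MitoParks, with control 1 above all other mice (log2 fold change -0.13, 95% interval -0.54 to 0.28). For Kcnn2 the group means were 29.4 ± 6.70 CPM in controls and 29.4 ± 3.79 CPM in MitoParks (SD, n = 3 each). None of class q, the genes of the slow M-type channels that muscarinic receptors close, passed the test. Kcnq3 was at 20.8, 9.12 and 16.2 CPM and then at 16.0, 14.5 and 12.6 CPM. Every MitoPark lay within the range of the controls.

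The 2 members of class e, Kcne1l and Kcne4, and Kcnu1 of class u were also not called, with log2 fold changes between -0.10 and -0.05.

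Kcnt1, which encodes a sodium-activated channel, was at 92.0, 92.3 and 87.4 CPM in controls and at 114, 79.9 and 138 CPM in MitoParks 1, 2 and 3. MitoParks 1 and 3 were above all controls and MitoPark 2 was below them. The log2 fold change was 0.29 (standard error 0.17, unadjusted p = 0.133), and by edgeR's quasi-likelihood test it was 0.48 without MitoPark 2 (unadjusted p = 0.00376) and 0.10 without MitoPark 3 (unadjusted p = 0.552).

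The paper's list of pathway genes names 5 members and the auxiliary subunit gene Kcnab1. That list was drawn from these same mice, so it is no independent evidence of direction. None of the 6 passed the test here: Kcng1, Kcnh4 and Kcnab1 had log2 fold changes of 0.38, 0.07 and 0.13, and Kcnj4, Kcna5 and Kcnj2 of -0.30, -0.12 and -0.28.

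Potassium channels carry auxiliary subunits that set their gating and surface level. Of 21 listed genes for these and related subunits, 18 were tested, of which 9 were higher and 9 lower, with a median log2 fold change of -0.0042 and none at an unadjusted p below 0.05. Kcnma1, which encodes the pore of the large-conductance calcium-activated channel, came nearest, at 64.9, 57.8 and 51.0 CPM in controls and 43.4, 55.4 and 37.3 CPM in MitoParks (log2 fold change -0.35, unadjusted p = 0.0582). MitoPark 2 was within the range of the controls, and without it the log2 fold change was -0.51 (unadjusted p = 0.00817). It was -0.43 without control 3 (unadjusted p = 0.029), -0.26 without control 1 (unadjusted p = 0.175) and -0.23 without MitoPark 3 (unadjusted p = 0.194). Dpp6, a Kv4 partner, was at 463, 464 and 418 CPM and then at 433, 419 and 347 CPM. Abcc8, whose product completes the channel made by Kcnj11, was at 16.0, 14.5 and 14.5 CPM in controls and 19.9, 13.0 and 14.4 CPM in MitoParks.

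For most members the spread among controls was wider than the difference between the groups. In 60 of the 64 members, or 93.8%, the difference between group means was smaller than the range of the 3 controls, against 89.2% of all genes tested. The highest mouse was at least 2-fold above the lowest for 34.4% of members and 17% of all genes. Among the 47 members with a mean of 5 CPM or more, where counting error is less, 11 reached this spread. The share of all genes at that level was not computed, so this count has no comparison.

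Kcng4, another silent subunit gene, had the widest spread of these 47, at 5.01, 18.0 and 27.0 CPM in controls and 10.5, 25.2 and 14.4 CPM in MitoParks. Kcna1 was at 119, 173 and 267 CPM and then at 127, 233 and 197 CPM. In both genes control 1 and MitoPark 1 were the lowest mice and control 3 and MitoPark 2 the highest. The group means hardly differed, with log2 fold changes of 0.0030 for Kcng4 (standard error 0.50) and -0.0038 for Kcna1 (standard error 0.29).

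This order of mice was noticed in members and then counted. It held for 7 members, or 10.9%, among them Kcna1, Kcna2, Kcng4, Kcnj8, Kcnj16 and Kcnk1, against 3.71% of all genes tested. Since Kcna1 and Kcng4, from which the order was taken, are in this count, the shares are a description and not a test. The reverse order held for Kcnt2 alone, or 1.56%, against 3.38%. Pvalb, the parvalbumin gene of fast-firing neurons, was at 18.2, 33.2 and 62.8 CPM in controls and 23.4, 61.2 and 45.4 CPM in MitoParks. The 6 oligodendrocyte markers summed to 6697, 9454 and 17757 CPM in controls and 9203, 11941 and 15111 CPM in MitoParks. Control 1 and MitoPark 1 were lowest by both measures. The other GABA neuron markers, Gad1, Gad2 and Slc32a1, went the other way. Each was highest in control 1 among controls and in MitoPark 1 among MitoParks. Gad2, for example, was at 520, 297 and 327 CPM in controls and 491, 417 and 280 CPM in MitoParks. The part of cell makeup in these spreads was not tested.

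**Figure D4:**
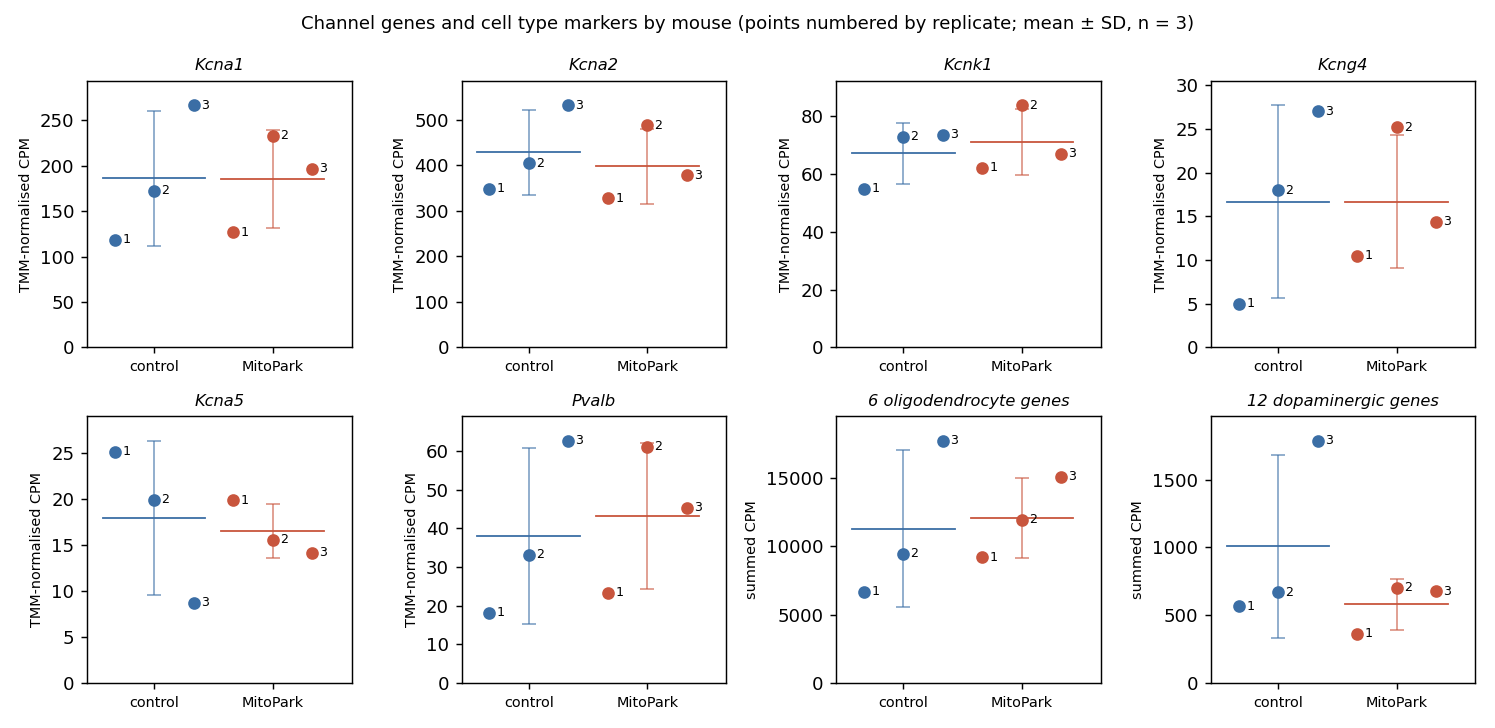
TMM-normalised CPM of Kcna1, Kcna2, Kcnk1, Kcng4, Kcna5 and Pvalb, and summed CPM of 6 oligodendrocyte and 12 dopaminergic marker genes, in each mouse, with lines and bars at the mean and SD of 3 mice. Kcna1, Kcnk1 and Kcng4 are lowest in control 1 and MitoPark 1 and highest in control 3 and MitoPark 2, and Kcna5 is highest in control 1 at 25.2 CPM and lowest in control 3 at 8.70 CPM.

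Genes that sit next to each other in the RefSeq annotation did not all share the order of the mice. Kcna5, Kcna1 and Kcna6 are neighbours on chromosome 6. Kcna5 was at 25.2, 19.9 and 8.70 CPM in controls and 19.9, 15.6 and 14.2 CPM in MitoParks, so that it was lowest in control 3, where Kcna1 was highest. Kcna6 was at 161, 126 and 160 CPM and then at 154, 145 and 135 CPM, a narrower range than either. Kcnj2 and Kcnj16 are neighbours on chromosome 11, and both were lowest in MitoPark 1. Kcnj8 and Abcc9, which together encode the ATP-sensitive channel of pericytes, are neighbours too. Kcnj8 was at 3.01, 3.13 and 5.18 CPM in controls and 2.80, 4.35 and 4.31 CPM in MitoParks, and Abcc9 was at 15.7, 13.3 and 19.5 CPM and then at 13.8, 17.6 and 17.7 CPM. Both were highest in control 3.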

How the data were processed

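RNA-seq of the SN of 3 MitoParks and 3 littermate controls was used. Reads were aligned by the authors against UCSC transcripts (Bowtie2 2.1.0), and RSEM 1.2.15 gave expected counts per gene, which the authors deposited as they were, not normalized. The submitters' notes list a human build for these mouse samples, so the build is uncertain and no coordinates were taken from the files. Between 11.91% and 14.11% of values per mouse were not whole. RSEM shares reads among similar transcripts, which bears on close relatives of a family.

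Expected counts were rounded. The filter asked for a mean CPM over 1 in either group. It left 14568 genes, all 64 members among them, which were normalized by TMM and compared with edgeR 4.0.16 (R 4.3.3) by its quasi-likelihood test with 2 groups and no covariate, with Benjamini-Hochberg adjustment over all genes tested. The study's cutoffs were used (unadjusted p below 0.05, and a change over 1.5-fold). CPM values are TMM-normalized. Exact permutation tests used log2(CPM + 0.1). Alternatives used DESeq2 1.42.0, limma 3.58.1 and other settings given in the closing section. Levels between genes were divided by the longest GENCODE M21 transcript, found for all 64 members. The fits were also run on simulated data, with planted changes larger than that of any member. How they perform on changes as small as those of the members was not tested. Members and lists were chosen with earlier results of these data known. Named genes were members with an unadjusted p below 0.05, members whose groups did not overlap, the most abundant and the most changed gene of each class, channels with known roles in the midbrain or glia, and channel genes in the paper's list of pathway genes. Some genes of the family are not reported here, and the counts over the 64 members include 4 of these. Without molecular identifiers, copies of a molecule made by PCR are counted as separate reads.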

Additional observations from a re-analysis of the deposited data

How the results depend on the processing

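Kcng2 stayed past both cutoffs under all 9 alternatives with 6 mice that tested it, and Kcnv1 kept an unadjusted p below 0.05 under all 10. With only genes above 5 CPM tested, Kcng2 was not among them and 0 members passed both cutoffs, while 31 of all genes did. With each mouse left out, the members at an unadjusted p below 0.05 numbered from 0 (without control 2) to 4 (without control 3 or MitoPark 2), and those past both cutoffs from 0 to 3. Calls over all genes moved as well. At an unadjusted p below 0.05 there were 121 without control 2, 374 without control 3 and 657 without MitoPark 2, against 161 with all 6 mice. Past both cutoffs there were 219 without control 3, where 3 members passed, against 84 with all 6 mice. Member calls gained by leaving out a mouse were those of Kcna3 and Kcna5 without control 3 (unadjusted p = 0.0487 and 0.0353), Kcnj9 and Kcnt1 without MitoPark 2 (unadjusted p = 0.0341 and 0.00376) and Kcnh5 without MitoPark 1. With control 3 and MitoPark 3 both left out, an alternative added after the data were seen, 3 members passed both cutoffs (Kcng2, Kcnv1 and Kcnj13), as did 131 of all genes. Kcna4 lost its call under DESeq2 (unadjusted p = 0.1), the likelihood ratio test (unadjusted p = 0.0768), total counts (unadjusted p = 0.0539) and no filter (unadjusted p = 0.0553). The replicate number as a block gave 4 members at an unadjusted p below 0.05, with Kcnj2 added (unadjusted p = 0.0448), and a median log2 fold change of -0.05. Over all genes, 323 passed at this level with the block, against 161 in the main fit, so calls rose across the whole set. Kcnma1, which is no member, passed with the block (unadjusted p = 0.0191) and in 3 more of its 10 alternatives with 6 mice. No other named gene changed its call under the block. The labels number the mice and name no pairing. Deviations from the group means correlated across genes at 0.307, -0.07 and 0.244 for numbers 1, 2 and 3. Controls 1 and 3 correlated best with the MitoPark of their own number, and control 2 did not. Whether the numbers mark a pairing was not tested.

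No gene whose log2 fold change changed sign had passed the test with all 6 mice. Kcnn2 was at 0.0147 with limma-voom, 0.014 with total counts, 0.0079 with the 5 CPM filter and 0.0126 with the block, and Kcna1 at 0.0293, 0.0142, 0.0048 and 0.0285. Kcna5 was at 0.0114 with limma-voom and Kcnj16 at 0.0035 with total counts. With control 3 and MitoPark 3 left out, Kcnd3 was at 0.0125, Kcnj11 at 0.11, Kcna1 at 0.30, Kcna2 at 0.11, Kcnj16 at 0.0020 and Kcnh4 at -0.50. With each mouse left out, the log2 fold change ranged from -0.286 to 0.0943 for Kcnn3, -0.16 to 0.14 for Kcnn2, -0.13 to 0.0317 for Kcnj11, -0.24 to 0.35 for Kcna1, -0.27 to 0.0797 for Kcna2, -0.42 to 0.53 for Kcng4, -0.45 to 0.21 for Kcna5, -0.23 to 0.37 for Kcnh4, -0.0638 to 0.0923 for Kcnj16 and -1.09 to 0.34 for Kcnj13. The cause was not tested.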

Other observations

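Of the 16 symbols of the family that did not reach 1 CPM, 1 was an opposite-strand transcript, Kcnd3os. Kcnn4, the intermediate-conductance calcium-activated channel gene of immune cells and red cells, was counted 1, 3 and 5 times in controls, and 2, 2 and 3 times in MitoParks. Kcnq1, the channel gene of heart and inner ear, had 3, 2 and 4 counts and then 0, 3 and 4. Kcne2, a subunit gene of the choroid plexus, had 4, 14 and 8 counts and then 3, 5 and 2, and was highest in control 2 as Kcnj13 was. No read was assigned to Kcne1 or Kcnj1 in any mouse.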
